A study of Mus musculus with 36 samples.

Results

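The 6 genes examined here, *Ucp1*, *Cidea*, *Prdm16*, *Dio2*, *Elovl3* and *Ebf2*, are the rows of a gene-level RNA-sequencing count table whose Ensembl IDs carry these mouse symbols. They were taken by name, for their known place in heat-producing fat cells, with no threshold on their values. All 6 were found among the 54347 genes of the table, and all 6 were among the 15340 genes kept after a filter on low counts. In primary adipocytes treated for 6 h, butyrate lowered 3 of the 6, *Prdm16*, *Cidea* and *Dio2*, in a comparison that lowered 30.3% of all tested genes. These calls are from edgeR, which called no change in the others under butyrate and none of the 6 under β-hydroxybutyrate (βOHB); a small rise of *Ebf2* under butyrate passed in some other fits.

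Brown and beige adipocytes burn fuel to make heat. UCP1, a carrier in the inner mitochondrial membrane, lets protons leak back across it so that respiration is released as heat rather than ATP. The transcription factor EBF2 marks and opens the gene program of brown and beige fat, and PRDM16 is a transcriptional coregulator that drives the brown against the muscle fate and supports beige cells in subcutaneous fat. CIDEA is a lipid droplet protein, ELOVL3 lengthens saturated and monounsaturated fatty acids in brown fat and in the skin and liver, and DIO2 converts the thyroid prohormone T4 to active T3, which raises the response of these cells to noradrenaline. The inguinal depot is white fat in which beige cells arise readily, and rosiglitazone, an agonist of PPARγ, is known to favor their program.

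The series held 36 RNA-sequencing libraries from 4 kinds of mouse primary cells, each with a control group given PBS, a group given 5 mM βOHB and a group given 5 mM butyrate, with 3 libraries in every one of the 12 groups and 6 h of treatment throughout. Adipocytes had been grown out of stromal vascular cells of inguinal white fat, pooled from 3 to 4 male C57Bl/6 mice, and all 3 adipocyte groups had been exposed for 3 days to isobutylmethylxanthine, dexamethasone, insulin and the PPARγ agonist rosiglitazone (at 1 µM), with differentiation judged by eye. The others were macrophages from bone marrow and myotubes from hindlimb muscle of male C57Bl/6 mice, and hepatocytes from male C57BL/6NHsd mice. Adipocytes and macrophages shared a treatment medium, while myotubes and hepatocytes each had another. No source used here says that the libraries of a group came from separate cultures or animals, so P-values measure the spread between libraries, which may be technical. Unless a fit of 1 cell type is named, that spread was estimated for each gene over all 12 groups. Library totals ranged from 18366289 to 23221473 estimated counts, and levels are given as CPM, counts scaled to library size, of which 1 stood for 15.9 to 25.6 counts in a library. The 10 adipocyte markers examined summed to 12490 to 13850 CPM in control adipocytes against 139 to 452 CPM in the control libraries of the other cells, and the 8 hepatocyte markers to at most 0.173 CPM in control adipocytes. The 8 macrophage markers summed to 337 to 400 CPM in control adipocytes and to 17447 to 17634 CPM in control macrophages. The 10 preadipocyte and fibroblast markers, called fibroblast markers below, summed to 6564 to 7375 CPM in control adipocytes. Levels in the adipocyte libraries are thus those of a whole culture, and which of its cells held each of the 6 genes was not tested.

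RefSeq promoters were taken from 250 bases before to 50 bases after the annotated start on GRCm38.p6. Promoters were at hand for 3 of the 6 genes, *Ucp1*, *Prdm16* and *Dio2*, and all 3 are shown. They are written 5′ to 3′ on the strand of the gene, with the motif matches described next in capitals. The windows are chr8:83290098-83290397 on the plus strand for *Ucp1*, chr4:154636824-154637123 on the minus strand for *Prdm16* and chr12:90738989-90739288 on the minus strand for *Dio2*.
Ucp1: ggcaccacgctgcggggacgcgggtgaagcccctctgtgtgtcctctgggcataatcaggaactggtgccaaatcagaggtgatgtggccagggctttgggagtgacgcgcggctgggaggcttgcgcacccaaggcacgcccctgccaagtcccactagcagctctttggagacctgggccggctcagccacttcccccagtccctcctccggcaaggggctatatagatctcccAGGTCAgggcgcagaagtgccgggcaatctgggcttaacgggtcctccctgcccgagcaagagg
Prdm16: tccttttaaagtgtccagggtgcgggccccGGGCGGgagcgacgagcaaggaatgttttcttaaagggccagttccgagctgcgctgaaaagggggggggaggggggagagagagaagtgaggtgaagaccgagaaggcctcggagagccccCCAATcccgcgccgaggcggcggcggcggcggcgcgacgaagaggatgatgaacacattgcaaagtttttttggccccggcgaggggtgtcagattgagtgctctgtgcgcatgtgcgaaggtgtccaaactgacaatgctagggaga
Dio2: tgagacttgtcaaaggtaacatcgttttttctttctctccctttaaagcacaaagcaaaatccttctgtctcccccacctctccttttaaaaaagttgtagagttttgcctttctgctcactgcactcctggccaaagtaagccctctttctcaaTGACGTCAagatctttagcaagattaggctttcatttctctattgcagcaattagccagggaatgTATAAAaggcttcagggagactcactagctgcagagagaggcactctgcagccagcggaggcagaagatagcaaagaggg

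Both strands were searched for 6 short motifs. The *Dio2* window held the cAMP response element TGACGTCA, which reads the same on both strands, at position -95 from the start, a motif present in 1.79% of all 32851 promoters of that length in the table. It also held the TATA box TATAAA at -30, found in 13.6% of promoters. The *Prdm16* window held a CCAAT box at -98 (CCAAT, 37.4% of promoters) and a GC box at -220 (GGGCGG, 35.7%). The *Ucp1* window held the nuclear receptor half-site AGGTCA at -14, present in 16.3% of promoters. The EBF core CCCNNGGG, in 13.7% of promoters, was in none of the 3 windows. These are matches of letters, not measured binding. The *Dio2* start in RefSeq lay 600 bases upstream of that in GENCODE M21, and those of *Ucp1* and *Prdm16* lay 4 and 0 bases upstream.

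In control adipocytes the 6 genes spanned a wide range of levels. Per kb of exon, *Cidea* stood at 9.74 ± 1.31 CPM per kb (SD, n = 3) and *Ebf2* at 9.44 ± 0.379, a difference within the spread, and their order turned when the longest transcript was used as the length. *Elovl3* followed at 5.50 ± 0.723 CPM per kb, then *Prdm16* at 1.38 ± 0.0906. *Ucp1* at 0.867 ± 0.570 and *Dio2* at 0.244 ± 0.113 CPM per kb were lowest. In CPM without length, 80.2% of the tested genes had a higher mean than *Ucp1* in these cells, and 19.7% had a higher mean than *Ebf2*. *Ucp1* drew 99 estimated counts from the 3 control libraries together, of which 57 came from replicate 1.

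Of the transcriptional regulators, *Prdm16* (ENSMUSG00000039410, chr4:154316125-154636873, minus strand) fell under butyrate, to 0.508 times its control level. The control adipocyte libraries held 13.2, 11.9 and 13.6 CPM, the βOHB libraries 12.5, 11.7 and 12.5 CPM, and the butyrate libraries 7.30, 6.43 and 5.92 CPM. The butyrate libraries were all below the lowest of the other groups. The quasi-likelihood test of edgeR gave a log2 fold change of -0.98 ± 0.13 (± SE here and below) against control at an adjusted P of 1.76e-07, and 8% of all tested genes had a lower log2 fold change.

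*Ebf2* (ENSMUSG00000022053, chr14:67233292-67430918, plus strand) did not share that fall. Its control libraries held 66.0, 67.7 and 62.6 CPM, its βOHB libraries 64.5, 69.5 and 67.6 CPM, and its butyrate libraries 73.2, 77.9 and 78.5 CPM. Every butyrate library was above every control library, but the log2 fold change of 0.23 ± 0.11 did not pass the test, with an adjusted P of 0.0824 (edgeR). The same difference passed with limma-voom (adjusted P = 0.00373), when only the 9 adipocyte libraries were fitted (0.00219) and when libraries were scaled by their totals alone (0.0194). The edgeR fit of all 36 libraries estimated the spread of each gene over all 12 groups. The SD of *Ebf2* log2 CPM was 0.058 in control and 0.055 in butyrate adipocytes, against 0.58 in control macrophages and 0.35 in butyrate myotubes. *Ebf2* and its antisense neighbor *Gm10860* share 424 exon bases, and that neighbor drew 5 counts or fewer in all libraries of any adipocyte group.

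Among the effectors, *Ucp1* (ENSMUSG00000031710, chr8:83290352-83298452, plus strand) was low and variable. Control libraries held 2.47, 0.689 and 1.10 CPM, βOHB libraries 1.54, 1.16 and 0.541 CPM and butyrate libraries 1.23, 0.742 and 1.66 CPM. The 3 groups overlapped. The butyrate difference was -0.23 on the log2 scale with a 95% interval from -1.21 to 0.75 (adjusted P = 0.692, edgeR), so halving and a rise of more than 1.5-fold both lay inside it. Without control replicate 1 the difference was 0.43.

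*Cidea* (ENSMUSG00000024526, chr18:67343604-67367785, plus strand) was lower under butyrate by a smaller factor than *Prdm16*. It measured 12.0, 9.22 and 11.3 CPM in the controls, 11.0, 7.56 and 6.08 CPM with βOHB and 7.84, 7.34 and 7.31 CPM with butyrate. The butyrate libraries lay close together and below every control, while the βOHB libraries reached from below the butyrate values to within the control range. The log2 fold change under butyrate was -0.53 ± 0.15 (adjusted P = 0.00233, edgeR).

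*Elovl3* (ENSMUSG00000038754, chr19:46131897-46135694, plus strand) held 12.5, 9.74 and 10.4 CPM in the controls, 8.30, 9.15 and 10.3 CPM with βOHB and 10.2, 10.8 and 12.5 CPM with butyrate. All groups overlapped, and the butyrate difference was 0.04 on the log2 scale, with an interval from -0.29 to 0.37 (adjusted P = 0.855, edgeR). *Pitx3*, a gene on the opposite strand that shares 10 exon bases with *Elovl3*, went from 0.0862 CPM in control to 1.68 CPM in butyrate adipocytes.

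*Dio2* (ENSMUSG00000007682, chr12:90724552-90738438, minus strand) showed the largest fall of the 6. Its control libraries held 2.12, 0.819 and 1.31 CPM, its βOHB libraries 1.41, 0.952 and 1.08 CPM and its butyrate libraries 0.444, 0.660 and 0.135 CPM. Each butyrate library was below each of the other 6 libraries. The log2 fold change was -1.74 ± 0.52 (adjusted P = 0.00511, edgeR), on 99 counts in all controls and 28 in all butyrate libraries. Without control replicate 1 it was -1.34 and missed the threshold (adjusted P = 0.0565).

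**Figure D1:**
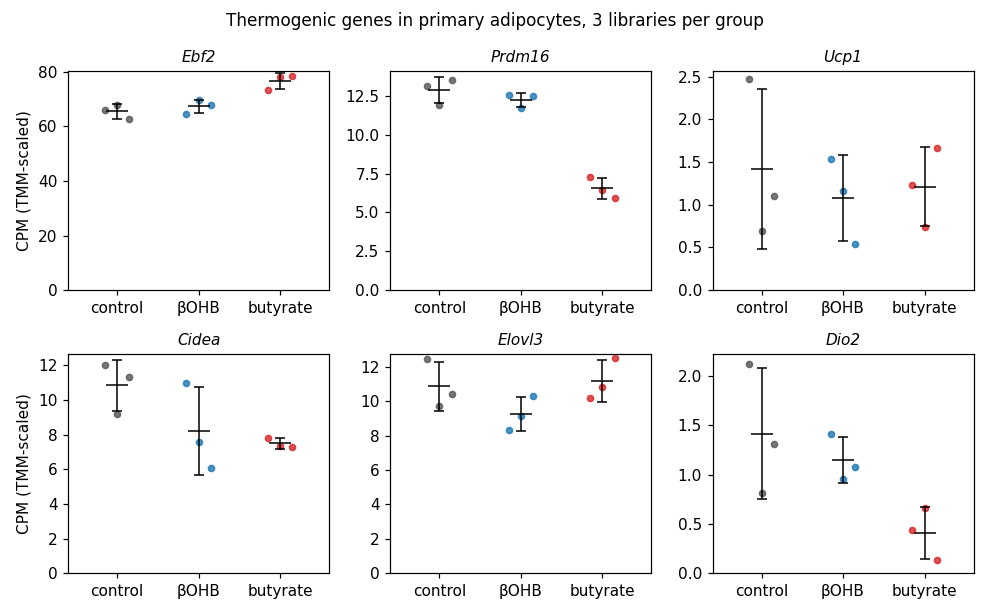
CPM of the 6 genes in each adipocyte library (points), by treatment, with the mean and SD over 3 libraries in black. The butyrate points of *Prdm16* (5.92 to 7.30 CPM), *Cidea* (7.31 to 7.84 CPM) and *Dio2* (0.135 to 0.660 CPM) lie below every control point, while those of *Ucp1* and *Elovl3* overlap the controls.

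In all, 3 of the 6 genes were lowered by butyrate at an adjusted P below 0.05 and 0 of 6 were raised, in a comparison that lowered 30.3% and raised 30.7% of the 15340 tested genes. By unadjusted P below 0.05 the raised count was also 0 of 6 with edgeR, and limma-voom called 1 of the 6 (*Ebf2*) raised. The median log2 fold change of the 6 was -0.38 against 0 for all tested genes. Adipocyte markers moved too: 7 of 10 were lowered and 0 raised, with a median log2 fold change of -0.63, and their sum went from 12490 to 13850 CPM in control to 8891 to 11093 CPM in butyrate libraries. The 6 endothelial markers summed to 194 to 221 CPM in control and 126 to 148 CPM in butyrate libraries. The 8 macrophage markers summed to 337 to 400 CPM in control and 306 to 327 CPM in butyrate libraries. The 10 fibroblast markers overlapped, at 6564 to 7375 CPM in control and 5896 to 7384 CPM in butyrate libraries. In bulk RNA, fewer cells of a type and less RNA per cell cannot be told apart, and the part of these shifts in the results for the 6 genes was not tested.

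βOHB, at the concentration and time used for butyrate, changed 0 of the 6 genes in adipocytes by edgeR at an adjusted P below 0.05, where 0.00652% of all tested genes were called, which is 1 gene. DESeq2 and limma-voom also called 0 of the 6. At an unadjusted P below 0.05 each of the 3 tools found 1 of the 6, where edgeR found 7.15% of all tested genes. In edgeR it was *Cidea*, at a log2 fold change of -0.40 ± 0.14 (unadjusted P = 0.0104, adjusted P = 0.592), which was -0.67 without βOHB replicate 1 (adjusted P = 0.0539) and -0.22 without βOHB replicate 3 (adjusted P = 1). The other differences from control were -0.07 for *Prdm16* (95% interval -0.33 to 0.19), 0.04 for *Ebf2* (-0.19 to 0.27), -0.23 for *Elovl3* (-0.57 to 0.10), -0.28 for *Dio2* (-1.15 to 0.58) and -0.38 for *Ucp1* (-1.38 to 0.61), all on the log2 scale. The intervals of *Dio2* and *Ucp1*, the genes with the fewest counts, were the widest of the 6.

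βOHB differs from butyrate by a hydroxyl group on the beta carbon. This 1 pair of compounds was compared directly in adipocytes, both at 5 mM for 6 h. Butyrate libraries were lower than βOHB libraries in *Prdm16*, by -0.91 ± 0.13 on the log2 scale (adjusted P = 7.42e-07, edgeR), and in *Dio2*, by -1.46 ± 0.55 (adjusted P = 0.0249), which is 2 of the 6 genes where 59.5% of all tested genes were called. The *Dio2* call was lost without βOHB replicate 1 (log2 difference -1.27, adjusted P = 0.0970), without butyrate replicate 3 (-1.04, 0.125) and with limma-voom (-1.66, 0.0857). For *Cidea* the difference between the compounds was -0.14 with an interval from -0.44 to 0.17, and 0.14 without βOHB replicate 1. For *Ucp1* the interval reached from -0.88 to 1.18, for *Elovl3* from -0.06 to 0.61 and for *Ebf2* from -0.04 to 0.42. The *Ebf2* difference passed with limma-voom (adjusted P = 0.0154), with the adipocyte libraries alone (0.00685) and with library totals alone (0.0225).

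**Figure D2:**
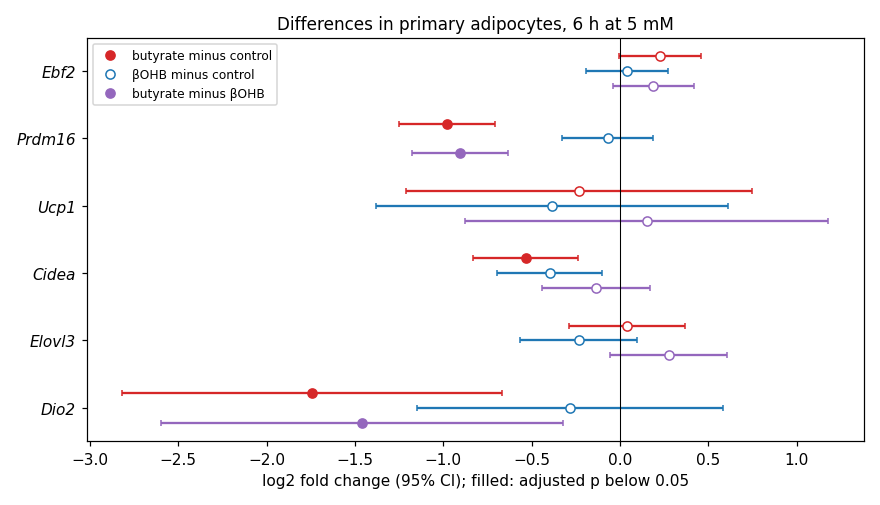
Log2 fold changes of the 6 genes in adipocytes with 95% confidence intervals, for butyrate against control, βOHB against control and butyrate against βOHB; filled points have an adjusted P below 0.05. Filled points appear for *Prdm16*, *Cidea* and *Dio2* under butyrate and for *Prdm16* and *Dio2* between the compounds, and every βOHB point is open.

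Across untreated cells, 5 of the 6 genes had their highest mean in adipocytes, and *Dio2* had its highest in myotubes. All 6 were called between control adipocytes and control macrophages, between control adipocytes and control myotubes and between control adipocytes and control hepatocytes, where 77.5%, 78.2% and 81.1% of all tested genes were called. *Ucp1* passed the filter on low counts through 6 adipocyte libraries alone, so its calls here were fixed by that filter and support nothing. Cell type and isolation cannot be told apart in these comparisons, nor can treatment medium in those with myotubes and hepatocytes. *Ebf2* went from 65.4 ± 2.63 CPM in adipocytes to 5.23 ± 0.167 in myotubes and 0.984 ± 0.373 in macrophages, and hepatocyte controls held no read, so adipocytes were at least 1071-fold higher than the 3 counts taken as the floor over a group. *Prdm16* fell in the order adipocytes (12.9 ± 0.845 CPM), macrophages (4.31 ± 0.764), myotubes (1.52 ± 0.144) and hepatocytes (0.204 ± 0.0405), with no overlap between neighbors.

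*Ucp1* drew 99 counts from all control adipocytes and 0 from all control libraries of the other cells. *Cidea* stood at 10.9 ± 1.46 CPM in adipocytes, 1.76 ± 0.148 in myotubes and 1.45 ± 0.0814 in hepatocytes, with no read in macrophages (at least 241-fold lower). *Elovl3* stood at 10.9 ± 1.43 CPM in adipocytes, 1.07 ± 0.0686 in myotubes, 0.675 ± 0.181 in hepatocytes and 0.0995 ± 0.107 in macrophages.

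*Dio2* had the reverse order for adipocytes. Control myotubes held 42.7, 41.0 and 39.3 CPM, control macrophages 27.2, 30.1 and 29.2 CPM, and control adipocytes 2.12 CPM at most, while 1 count was found in all hepatocyte controls together. Adipocytes were lower than macrophages by -4.34 ± 0.26 and than myotubes by -4.85 ± 0.26 on the log2 scale (adjusted P = 4.86e-15 and 2.63e-16, edgeR). Adipocytes were 69.5 times higher than hepatocytes, with an exact binomial 95% interval from 12.2 to 2772 that covers counting error alone.

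**Figure D3:**
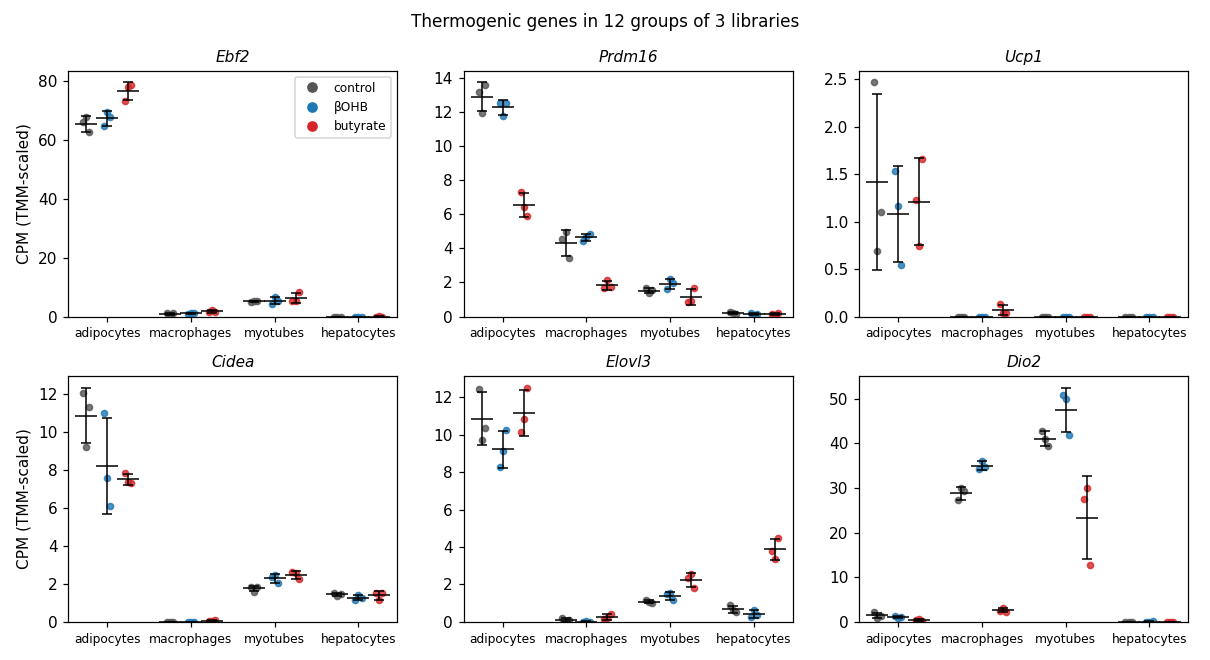
CPM of the 6 genes in all 36 libraries (points), by cell type and treatment, with the mean and SD over 3 libraries in black. Adipocytes hold the highest values of every gene but *Dio2*, whose controls reach 39.3 to 42.7 CPM in myotubes and whose butyrate macrophages drop to 2.24 to 3.04 CPM.

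In macrophages, butyrate lowered 2 of the 6 genes, where 33.2% of tested genes were lowered, and raised 2 of the 6, where 31.9% were raised. *Dio2* fell from 27.2, 30.1 and 29.2 CPM to 2.48, 3.04 and 2.24 CPM, a log2 fold change of -3.47 ± 0.24 (adjusted P = 3.06e-13, edgeR), and 0.137% of all tested genes had a lower value in this comparison. The βOHB macrophages held 34.2, 36.1 and 34.6 CPM, above every control, without passing the test (0.28, adjusted P = 1). *Prdm16* fell from 4.53, 4.94 and 3.46 CPM to 1.65, 2.14 and 1.73 CPM, by -1.21 ± 0.17 (adjusted P = 1.73e-07), while βOHB libraries held 4.45, 4.64 and 4.84 CPM. The macrophage markers summed to 17447 to 17634 CPM in control and 10696 to 11240 CPM in butyrate macrophages, and the 6 markers of proliferating cells to 1522 to 1557 CPM and 654 to 755 CPM. Adipocyte markers went from 433 to 452 CPM to 316 to 329 CPM, fibroblast markers from 1572 to 1721 CPM to 991 to 1468 CPM and skeletal muscle markers from 6.95 to 14.3 CPM to 20.9 to 64.8 CPM. Their part in these results was not tested.

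*Ebf2* rose in macrophages at a low level, from 1.23, 0.554 and 1.17 CPM to 1.61, 2.30 and 1.40 CPM (log2 fold change 0.82 ± 0.27, adjusted P = 0.00996, edgeR). The call was lost without control replicate 2 (0.57, adjusted P = 0.0736) or without butyrate replicate 2 (0.60, 0.0838). The second raised gene was *Cidea*, with 0 counts in all controls and 4 counts in all butyrate libraries (adjusted P = 0.0355). Set against a floor of 3 counts for the controls, its butyrate mean was 1.24-fold higher. That value leaves out the counting error of the 4 counts, so it does not bound the rise. DESeq2 did not call it (adjusted P = 0.0716). Nor did edgeR without the filter on low counts (0.0681) or with the macrophage libraries alone (0.08). The edgeR call was also lost when any 1 control library or butyrate replicate 3 was left out (0.0719 to 0.0951). *Ucp1* had 0 counts in controls and 5 in butyrate libraries, and *Elovl3* had 7 and 18 counts; neither was called by edgeR, while limma-voom called all 6 genes in this comparison, in which it called 4903 raised and 5159 lowered of the 15340 tested genes. The *Elovl3* difference was 1.20 ± 0.61 (adjusted P = 0.0831), and it passed without control replicate 1 (log2 fold change 2.28, adjusted P = 0.0146), without butyrate replicate 1 (1.51, 0.0356), with limma-voom (1.46, 0.0411) and with library totals alone (1.42, 0.0378). It was 0.64 without butyrate replicate 3 (adjusted P = 0.454) and 0.71 without control replicate 2 (0.308).

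In myotubes, butyrate lowered 1 of the 6 genes against 33.4% of tested genes and raised 2 of the 6 against 33.1%. *Dio2* went from 42.7, 41.0 and 39.3 CPM to 27.4, 29.9 and 12.7 CPM (-0.81 ± 0.18, adjusted P = 0.000336, edgeR), with βOHB libraries at 50.7, 50.0 and 41.8 CPM. Without butyrate replicate 3, the lowest library, the log2 fold change was -0.52. *Elovl3* rose from 1.15, 1.06 and 1.01 CPM to 2.32, 2.55 and 1.83 CPM (1.06 ± 0.24, adjusted P = 0.000348). *Cidea* rose from 1.83, 1.59 and 1.85 CPM to 2.64, 2.55 and 2.24 CPM (0.50 ± 0.19, adjusted P = 0.0254), a call lost without control replicate 2, butyrate replicate 1 or butyrate replicate 2 (adjusted P up to 0.0905) and with limma-voom (0.0742).

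*Prdm16* in myotubes held 1.65, 1.37 and 1.54 CPM in controls and 0.854, 0.931 and 1.65 CPM under butyrate, and was not called (-0.42, adjusted P = 0.0793, edgeR); without butyrate replicate 3 it was (-0.76, adjusted P = 0.00471). The 8 hepatocyte markers summed to 35.5, 645 and 150 CPM in the 3 butyrate myotube libraries and to at most 0.0881 CPM in control myotubes, and the macrophage markers summed to 19.0 to 74.5 CPM under butyrate and 112 to 283 CPM in controls. From control to butyrate libraries the adipocyte markers went from 297 to 432 CPM to 89.5 to 184 CPM, the 8 skeletal muscle markers from 24039 to 29303 CPM to 15709 to 21643 CPM and the markers of proliferating cells from 37.6 to 81.4 CPM to 18.3 to 24.4 CPM. The part of these shifts in the myotube results was not tested. No myotube library held a *Ucp1* read.

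In hepatocytes, butyrate raised 1 of the 6 genes, where 31% of tested genes were raised, and lowered 0 of the 6, where 32.4% were lowered; no member was lower at an unadjusted P below 0.05 with edgeR, and DESeq2 and limma-voom also called 1 gene. The gene was *Elovl3*, which rose from 0.878, 0.615 and 0.532 CPM to 3.76, 3.37 and 4.50 CPM, a log2 fold change of 2.51 ± 0.27 (adjusted P = 2.05e-09, edgeR), while βOHB hepatocytes held 0.263, 0.632 and 0.351 CPM. *Pitx3*, which overlaps its end, went from 1 to 86 counts over the 3 libraries of each group. Whether the counting used strand is not given in the sources used here. *Cidea* did not differ (-0.06, 95% interval -0.55 to 0.43), and *Prdm16* (10 counts in controls, 8 under butyrate), *Dio2* (1 and 0) and *Ebf2* (0 and 1) were not called. In these libraries the adipocyte markers went from 139 to 165 CPM in control to 352 to 365 CPM under butyrate, the macrophage markers from 299 to 345 CPM to 137 to 156 CPM, the endothelial markers from 68.2 to 76.7 CPM to 20.8 to 23.8 CPM, and the hepatocyte markers from 42817 to 44393 CPM to 46817 to 49427 CPM. Skeletal muscle markers went from 28.2 to 29.2 CPM to 43.7 to 48.8 CPM, fibroblast markers from 64.9 to 69.5 CPM to 50.7 to 54.8 CPM and markers of proliferating cells from 8.42 to 14.7 CPM to 19.6 to 22.3 CPM. Their part in the *Elovl3* result was not tested.

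βOHB changed 0 of the 6 genes in each of these cells by edgeR, where 0% of tested genes were called in macrophages, 2.91% in myotubes and 0.00652% in hepatocytes. The myotube calls, 53 raised and 393 lowered genes, were 0 and 0 when only myotube libraries were fitted, 6 and 169 without control replicate 1 and 57 and 528 without control replicate 3. At an unadjusted P below 0.05 edgeR found 1 of the 6 in macrophages and 0 in myotubes and hepatocytes, where 2.33%, 13.7% and 5.51% of all tested genes fell below it, and DESeq2 and limma-voom called 0 in all 3 after adjustment. The 1 was *Elovl3*, with 7 counts in control and 1 in βOHB macrophages, a ratio of 0.146 with an exact binomial 95% interval from 0.00325 to 1.14.

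**Figure D4:**
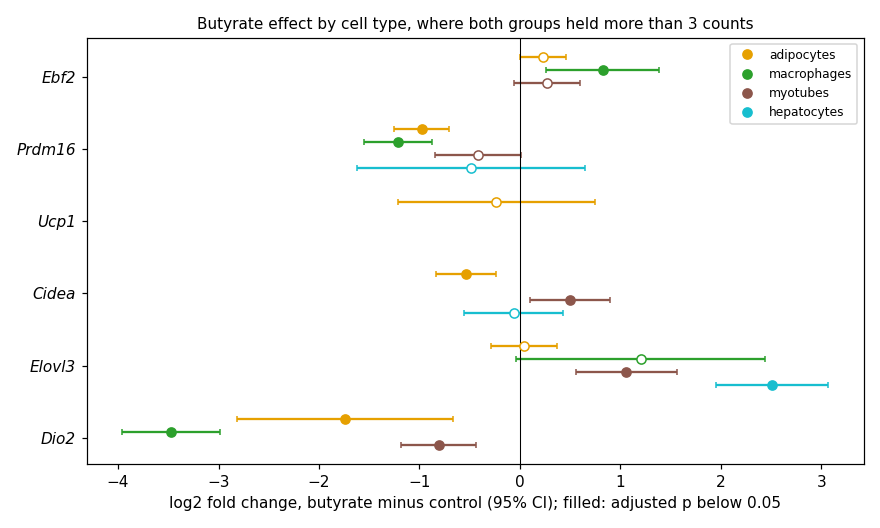
Log2 fold changes under butyrate with 95% confidence intervals in each cell type, for genes with more than 3 counts in both groups; filled points have an adjusted P below 0.05. *Dio2* and *Prdm16* lie left of 0 in every cell type shown, and *Elovl3* lies near 0 in adipocytes but at 1.06 in myotubes and 2.51 in hepatocytes.

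The butyrate effect in adipocytes was set against the mean effect in the other cells with an interaction contrast, which called 2 of the 6 genes where 32.9% of tested genes were called. *Elovl3* differed by -1.55 ± 0.29 (adjusted P = 8.9e-05, edgeR). The second was *Cidea*, but that contrast drew on the macrophages without control reads, so its size is not given. Against single cell types, *Cidea* differed from myotubes by -1.03 ± 0.24 (adjusted P = 0.00133, edgeR) and *Elovl3* by -1.02 ± 0.29 (0.00649), 2 of the 6 where 36.8% were called. In that contrast *Dio2* was called without myotube butyrate replicate 3 (-1.23, adjusted P = 0.0157) and without the filter on low counts (-0.91, 0.0255), and *Prdm16* without myotube butyrate replicate 1 (-0.73, 0.0276) or 2 (-0.69, 0.0452). Against hepatocytes 1 of the 6, *Elovl3*, was called at -2.47 ± 0.32 (adjusted P = 2.56e-07), where 41.4% of tested genes were.

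Against macrophages 2 of the 6 were called, where 36.6% of tested genes were: *Cidea*, on the 4 counts above, and *Dio2*, whose fall in adipocytes was smaller by 1.73 ± 0.68 on the log2 scale (adjusted P = 0.0464, edgeR). The *Dio2* call was lost with limma-voom (adjusted P = 0.153), with library totals alone (0.0600) and without adipocyte control replicate 2 or 3, adipocyte butyrate replicate 1 or 2, macrophage control replicate 2 or 3, or macrophage butyrate replicate 1 or 3, where the adjusted P rose to at most 0.357. For *Prdm16* the difference between adipocytes and macrophages was 0.24, with an interval from -0.20 to 0.67 (adjusted P = 0.422). For *Elovl3* it was -1.16 and not called (adjusted P = 0.153, edgeR). Without macrophage control replicate 1 the *Elovl3* difference was called (-2.24, adjusted P = 0.0345), and over left-out libraries it ranged from -2.24 to -0.60.

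Of 15 tested genes of the families to which the 6 belong, 6 rose, 5 fell and 4 were not called under butyrate in adipocytes, with a median log2 fold change of -0.08. Among all tested genes 30.7% rose and 30.3% fell with a median of 0, and the counts of this and the following lists are to be read against those shares. *Ucp2*, a mitochondrial carrier of the UCP1 family found in many tissues, rose from 54.8 ± 6.51 to 77.2 ± 3.84 CPM (0.49, adjusted P = 9.16e-06), and *Ucp3*, its counterpart in muscle, fell from 10.8 ± 1.89 to 2.65 ± 0.165 CPM (-2.02, adjusted P = 1.94e-08). *Cidec*, the lipid droplet protein of white fat, fell from 428 ± 36.5 to 203 ± 19.1 CPM (-1.08, adjusted P = 4.33e-10). *Ebf1*, a factor needed early in adipogenesis, fell from 245 ± 7.97 to 152 ± 4.77 CPM (-0.69, adjusted P = 5.64e-05), while *Ebf2* did not pass the test. All P-values here are from edgeR.

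Of the other fatty acid elongases tested, *Elovl2*, *Elovl4*, *Elovl5*, *Elovl6* and *Elovl7* rose and *Elovl1* fell. *Elovl4*, which makes very long chains, went from 2.83 ± 0.0749 to 16.5 ± 0.303 CPM (2.54, adjusted P = 5.94e-17), *Elovl5*, which acts on polyunsaturated chains, from 95.8 ± 7.87 to 230 ± 9.55 CPM (1.26, adjusted P = 4.52e-16) and *Elovl6*, which lengthens palmitate, from 80.2 ± 6.79 to 111 ± 5.33 CPM (0.47, adjusted P = 0.00436, all by edgeR). *Elovl1* fell from 95.3 ± 2.73 to 56.6 ± 3.01 CPM (-0.75, adjusted P = 6.44e-13). *Dio3*, the deiodinase that inactivates thyroid hormone, fell from 18.2 ± 2.77 to 3.46 ± 0.966 CPM (-2.40, adjusted P = 5.05e-12), in the direction of *Dio2*.

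**Figure D5:**
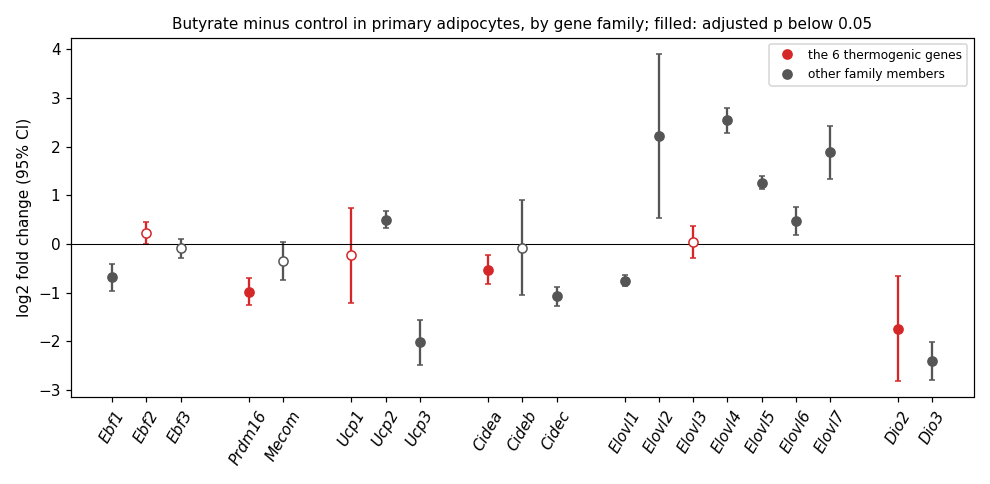
Log2 fold changes under butyrate in adipocytes with 95% confidence intervals, by gene family, with the 6 thermogenic genes in red and other family members in gray; filled points have an adjusted P below 0.05. Elongases spread from -0.75 (*Elovl1*) to 2.54 (*Elovl4*) with *Elovl3* near 0, and *Dio2* and *Dio3* lie below 0. *Dio1*, with 0 counts in every adipocyte library, is not drawn.

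Of 18 activators of thermogenic transcription, 4 rose, 9 fell and 5 were not called (median log2 fold change -0.22), where 30.7% of all tested genes rose and 30.3% fell. *Pparg*, the master regulator of adipocyte genes, fell from 263 ± 2.57 to 136 ± 8.63 CPM (-0.95, adjusted P = 2.36e-13, edgeR), and *Zbtb7b* from 107 ± 7.80 to 74.2 ± 3.67 CPM. *Ppargc1a*, the coactivator of mitochondrial biogenesis, rose from 10.3 ± 0.942 to 17.1 ± 0.963 CPM (0.72, adjusted P = 3.55e-05, edgeR). *Zfp516*, a zinc finger activator of *Ucp1*, rose from 33.8 ± 0.220 to 72.6 ± 1.11 CPM (1.10), and *Esrrb*, an estrogen-related receptor, from 0.286 ± 0.0523 to 2.02 ± 0.235 CPM. Of 12 repressors and corepressors, 4 rose, 7 fell and 1 was not called (median -0.36). *Zfp423*, which holds white adipocytes in their state, fell from 38.0 ± 7.99 to 11.5 ± 0.854 CPM (-1.73, adjusted P = 2.06e-12, edgeR) and *Ctbp1* from 131 ± 0.398 to 74.7 ± 4.90 CPM, while *Rb1* rose from 76.6 ± 0.484 to 114 ± 4.20 CPM and *Tle3* from 66.2 ± 2.39 to 89.9 ± 9.52 CPM.

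Of 22 genes of β-adrenergic and cAMP input, 7 rose, 8 fell and 7 were not called (median 0.03), shares near the 30.7% raised and 30.3% lowered among all tested genes. *Adrb3*, the adipocyte receptor for noradrenaline, had the lowest log2 fold change of the list at -3.04 (adjusted P = 1.13e-22, edgeR), and *Adcy6*, an adenylyl cyclase, fell from 137 ± 3.62 to 58.4 ± 1.38 CPM. *Gnai2* rose from 214 ± 8.96 to 319 ± 12.7 CPM and *Mapk14*, encoding p38α, from 95.5 ± 8.07 to 129 ± 6.43 CPM. Of 22 genes of brown-type mitochondria and fuel use, 6 rose, 6 fell and 10 were not called (median -0.10). *Coq8a* rose from 35.7 ± 6.37 to 72.2 ± 5.70 CPM and the nucleoside transporter *Slc29a1* from 17.0 ± 2.73 to 28.5 ± 1.19 CPM, while *Otop1* fell from 7.24 ± 1.81 to 3.74 ± 0.325 CPM and *Acot2* from 62.3 ± 15.7 to 46.5 ± 0.910 CPM.

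Of 12 tested genes of heat production without UCP1, 4 rose, 2 fell and 6 were not called (median 0.43), against 30.7% raised and 30.3% lowered among all tested genes. *Ckb*, the creatine kinase of the futile creatine cycle, rose from 28.5 ± 4.70 to 124 ± 4.63 CPM (2.11, adjusted P = 4.17e-18, edgeR), and *Gamt*, which makes creatine, from 8.59 ± 0.252 to 17.9 ± 1.61 CPM (1.06, adjusted P = 6.78e-11). *Slc25a5* fell from 421 ± 17.5 to 299 ± 6.54 CPM and *Atp2a2*, the SERCA2 calcium pump, from 361 ± 45.0 to 290 ± 11.4 CPM.

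Of 12 beige-selective markers 4 rose, 5 fell and 3 were not called (median -0.16), and the background was again 30.7% raised and 30.3% lowered. *Tmem26* went from 0.801 ± 0.202 to 5.47 ± 0.121 CPM (2.77, adjusted P = 3.08e-11, edgeR) and *Cited1* from 0.372 ± 0.0295 to 0.845 ± 0.137 CPM, while the positional genes *Hoxc8* and *Hoxc9* fell from 47.0 ± 4.73 to 16.3 ± 0.757 and from 21.7 ± 1.08 to 10.2 ± 1.07 CPM. Of 11 markers of the classical brown lineage 3 rose, 4 fell and 4 were not called (median -0.09). *Bmp7* rose from 0.115 ± 0.0508 to 1.48 ± 0.217 CPM and *Fbxo31* from 49.3 ± 1.52 to 76.6 ± 3.27 CPM, while *Lhx8* fell from 4.49 ± 0.242 to 0.841 ± 0.172 CPM and *Hspb7* from 29.1 ± 1.40 to 14.0 ± 0.134 CPM. Of 10 tested white-selective markers 0 rose, 1 fell and 9 were not called (median -0.18); the 1 was *Hoxc10*, from 53.3 ± 2.42 to 31.5 ± 1.56 CPM. Of 14 secreted factors listed for thermogenic fat, not all particular to it, 3 rose, 9 fell and 2 were not called (median -0.64). The list includes *Adipoq*, which is also among the adipocyte markers. *Cxcl14* fell from 55.8 ± 7.15 to 17.8 ± 1.77 CPM, *Igf1* from 183 ± 16.8 to 82.0 ± 3.12 CPM and *Adipoq* from 754 ± 80.2 to 533 ± 54.6 CPM, while *Fgf21* rose from 0.372 ± 0.0661 to 0.761 ± 0.160 CPM and *Wnt10b* from 1 count in all controls to 12 counts in all butyrate libraries. *Fabp4* was not called (-0.07, adjusted P = 0.700).

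βOHB changed 0 of the 145 tested genes of these 10 lists in adipocytes by edgeR, DESeq2 or limma-voom, where edgeR called 0.00652% of all tested genes. At an unadjusted P below 0.05 edgeR found 16 of the 145, and 7.15% of all tested genes. *Adrb3* was 367 ± 34.2 CPM with βOHB against 325 ± 32.1 in controls, *Pparg* 275 ± 21.0 against 263 ± 2.57 and *Ppargc1a* 11.3 ± 1.34 against 10.3 ± 0.942 CPM, and the libraries of both groups overlapped for each of these genes.

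The genes whose log2 CPM tracked each of the 6 most closely across all 36 libraries are given as a description, since libraries share cell types and treatments. The 5 closest to *Ucp1* by Pearson r were *Tmem45b*, *Slc25a51*, *Gm47595*, *Gm47593* and *Gm10851* (0.97 to 0.98). Those closest to *Cidea* were *Ndufv1*, *Ndufb9*, *Dlgap1*, *Cycs* and *Gm10053* (0.98 to 0.99), of which *Ndufv1*, *Ndufb9* and *Cycs* belong to the respiratory chain. *Prdm16* was tracked by the fatty acid transporter *Cd36*, *Cmklr1*, *Rhoj*, *Rpl39l* and *Ebf1* (0.97 to 0.98), and *Dio2* by the BMP antagonist *Grem1*, *Fam13b*, *Mamdc2*, *Ahnak2* and *Disc1* (0.97 to 0.98). *Elovl3* was tracked by *Acat1* and *Hadhb*, both enzymes of mitochondrial fatty acid or ketone breakdown, *Arhgap29*, *Fmo2* and *Prr5* (0.95 to 0.98), and *Ebf2* by *Slit3*, *Pla2g16*, *Fkbp7*, *Twist2* and *Islr* (0.99 each). Over the 9 adipocyte libraries the closest was *Irak2* for *Ucp1* (0.96), *Fcgr1* for *Cidea* (0.97), *Chordc1* for *Prdm16* (0.99), *Usp7* for *Dio2* (0.96), *Ptges2* for *Elovl3* (0.95) and *Ric8b* for *Ebf2* (0.98). Among the 6, *Cidea* and *Elovl3* were closest over the 36 libraries (r = 0.92), and their coefficient over the 9 adipocyte libraries was -0.05. Within the adipocyte libraries *Prdm16* and *Dio2* had r = 0.87 and *Prdm16* and *Ebf2* r = -0.95, over points that include the butyrate libraries.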

How the data were processed

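RNA-sequencing of 36 libraries was analysed from the gene-level table of estimated counts deposited by the authors. Per the methods, they quantified paired-end BGISEQ-500 reads with Salmon 1.2.1 against GENCODE M25 transcripts (GRCm38.p6) and scaled the estimates by average transcript length and library size on summing them to genes, although 55.6% of the deposited values above 0 are exactly whole numbers, so whether the table holds scaled or unscaled estimates is not settled and levels per kb depend on it. Transcripts that share sequence are thus split by estimate. Counts were rounded, scaled by TMM and tested with edgeR 4.0.16 (quasi-likelihood, 1 model of 12 group means, R 4.3.3) after keeping 15340 genes above 1 CPM in at least 6 of 36 libraries. *Ucp1* passed that filter in exactly 6 libraries. Benjamini-Hochberg adjustment covered all tested genes, and a gene was called at an adjusted P below 0.05. CPM use TMM-scaled totals, and log2 CPM a prior count of 2. Alternatives were limma-voom (limma 3.58.1), DESeq2 1.42.0, other scalings and filters, fits of single cell types, a replicate block and leaving out each library. Comparisons between single cell types were added after seeing the data. The members and the lists were chosen with earlier results of these data known. From each list the 2 raised and 2 lowered genes of smallest P without overlapping libraries were named, with *Ucp2*, *Cidec*, *Ebf1*, *Elovl6*, *Pparg*, *Ppargc1a*, *Adrb3*, *Adipoq* and *Fabp4* named always; *Ucp3*, *Elovl2* and *Elovl7* were named after their values were seen. Symbols and exon lengths came from GENCODE M21 (GRCm38), which matched 54094 of 54347 IDs; M25 was not used here. In simulated adipocyte data over 15340 genes, 70% of 100 genes changed 1.5-fold and 92% of 100 changed 2-fold were recovered. Only these genes, all above 1 CPM in control adipocytes, were changed, and the spread was that of the fit. In the data 61% of tested genes were called under butyrate in adipocytes, so the rates do not give the power for the 6 genes. With 3 libraries against 3, an exact permutation test of 1 value could not go below P = 0.1 and was not used. Exact binomial intervals and floors cover counting error only, while intervals of log2 fold changes carry the spread between libraries. The SE of a log2 fold change was calculated back from the test, as its size divided by the square root of the edgeR F statistic. The intervals of log2 fold changes rest on that SE.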

Additional observations from a re-analysis of the deposited data

Results flagged for a closer look

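A difference in the butyrate effect between cell types flagged 5 results, each by a test of the difference itself (edgeR). The effect on *Elovl3* was lower in adipocytes than the mean of the other cells by -1.55 on the log2 scale, than in myotubes by -1.02 and than in hepatocytes by -2.47. Against macrophages, with 7 control and 18 butyrate counts, its difference was -1.16 and was not called (adjusted P = 0.153, edgeR). The effect on *Cidea* was lower in adipocytes than in myotubes by -1.03, where the gene fell in adipocytes and rose in myotubes; the rise in myotubes was the weaker of these calls, as its adjusted P reached 0.101 without the filter on low counts. The fall of *Dio2* was smaller in adipocytes than in macrophages by 1.73, a call lost without any 1 of 8 of the 12 libraries in the contrast. Hepatocyte markers in the butyrate myotube libraries (35.5 to 645 CPM) stand beside the myotube results. Their part in those results was not tested. Single outlying libraries were not tested for in these groups of 3.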

How the results depend on the processing

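Over 67 differences of single genes, 964 of 1020 alternative values kept their direction and side of the threshold, 21 fell short of it, 18 newly passed and 17 changed sign. The sign changes were all in differences that were not called. For *Ucp1* under butyrate in adipocytes the value was 0.43 without control replicate 1 and 0.04 without butyrate replicate 2 (range over left-out libraries -0.56 to 0.43), under βOHB -0.76 to 0.27, and between the compounds -0.18 to 0.52. The ranges were -0.05 to 0.15 for *Elovl3* under butyrate, -0.56 to 0.12 for *Dio2* under βOHB and -0.32 to 0.14 for *Cidea* between the compounds, all in adipocytes. They were -0.03 to 0.41 for *Ebf2* and -0.03 to 0.21 for *Prdm16* under βOHB in macrophages, -0.13 to 0.18 for *Ebf2* under βOHB in myotubes, -0.14 to 0.07 for *Cidea* under butyrate in hepatocytes and -0.15 to 0.18 for *Ebf2* between adipocytes and myotubes. Scaling by library totals alone gave 0.01 for *Cidea* in butyrate hepatocytes and -0.03 for *Ebf2* in βOHB myotubes, which was -0.01 without the filter. The cause was not tested.

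Between butyrate and βOHB in adipocytes 4 of the 6 genes were called with library totals alone, which added *Elovl3* and *Ebf2*. That setting called 5636 raised and 3491 lowered of all 15340 tested genes. When a library was left out, 1 to 2 of the 6 were called. In butyrate macrophages 2 to 5 were called when a library was left out (2 without control replicate 2). With limma-voom 6 were called, where 4903 of all 15340 tested genes were raised and 5159 lowered. White-selective markers called under butyrate numbered 2 with limma-voom, 4 without the filter and 1 to 2 without single libraries. Among all genes limma-voom called 4741 raised and 4685 lowered of 15340, and the fit without the filter 4761 and 5007 of 32246. Without the filter 1 beige-selective and 1 brown-type mitochondrial gene were called under βOHB, where calls among all genes went from 1 to 68 raised and 124 lowered of 32246. Against hepatocytes alone 1 gene differed from adipocytes in its butyrate effect. Library totals alone shifted the median log2 fold change under butyrate by 0.20 in macrophages, 0.13 in myotubes and 0.07 in adipocytes, and the share of calls that were raised from 49% to 66.7%, from 49.8% to 61.8% and from 50.4% to 58.8%. In adipocytes that is 5406 raised and 3793 lowered genes in place of 4717 and 4642.

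Same-numbered libraries did not deviate together in every pair (correlations -0.11 to 0.22 in adipocytes, with a mean of 0.06 for shared numbers and -0.03 for other numbers), so the numbers were not taken as pairs. With a replicate block the 6 genes gave 3 calls under butyrate in adipocytes, as without it, and the white-selective markers gave 2 in place of 1. *Ucp1* and *Dio2* drew 99 counts each from all control adipocytes, of which *Ucp1* had 57, 16 and 26 by library.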
